A study of Mus musculus with 6 samples.

Results

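The genes described here carry out classical antigen presentation by the major histocompatibility complex (MHC), the H2 complex in the mouse. There are 10 of them: the class I heavy chains H2-K1 and H2-D1, their light chain B2m, the peptide transporter and loading genes Tap1, Tap2 and Tapbp, the class II chains H2-Aa, H2-Ab1 and H2-Eb1, and the invariant chain Cd74. Every probe set whose platform annotation gives 1 of these symbols alone was taken, whatever its values, which gave 31 of the 34945 probe sets that name 1 gene. Testis RNA of 6 mice was measured, each on 1 oligonucleotide array: 2 mice of C57BL/6, 2 of AKR/N and 2 of MRL/MpJ+/+, all 8 weeks of age, each strain an inbred line and each sample total RNA of the whole organ. The labels name no treatment and no engineered allele, and the +/+ of the third strain marks animals without the lpr mutation of Fas. The question the design addresses is how testis expression differs by strain.

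Class I molecules, a heavy chain paired with B2m, show peptides from inside the cell to CD8+ T cells and are made by most cell types, at low levels in germ cells. Class II molecules, an alpha and a beta chain guided by the invariant chain, show peptides from taken-up material to CD4+ T cells and are made mainly by macrophages, dendritic cells and B cells, which in the testis lie in the interstitium. The classical chains are among the most polymorphic genes of the mouse: C57BL/6 carries the H2b haplotype, while AKR/N and MRL/MpJ+/+ carry H2k, and an array probe designed on the sequence of 1 allele may bind another allele differently. The probe sequences and the H2k alleles were not used here, so a different amount of transcript and a different match between probe and allele cannot be told apart in a single probe set.

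Class I genes are known to be induced through NF-kB and interferon response elements near their starts, and class II genes through the X and Y boxes of theirs. The RefSeq table of mouse promoters (GRCm38.p6, a C57BL/6J sequence) held 7 of the 10 genes, and H2-Ab1, Tap2 and Cd74 are named only. Of the promoters in that table, 4 stretches are printed. The 2 class I heavy chains share theirs nearly base for base. B2m holds matches to a looser NF-kB motif and to the same interferon response motif, and H2-Aa holds matches to the X2 and Y motifs. Capitals mark the matches to the motifs searched within 250 bases before the start: for the first 2 genes GGGATTCCC and TTTCNNTT, for B2m GGGNNNNNCC (on both strands, overlapping) and TTTCNNTT on the other strand, and for H2-Aa TGACG (on both strands, overlapping) and CCAAT on the other strand. Each sequence is given 5′ to 3′ on the strand of its gene.
H2-K1, chr17:34000418-34000469, minus strand: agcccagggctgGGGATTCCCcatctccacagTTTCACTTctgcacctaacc
H2-D1, chr17:35262912-35262963, plus strand: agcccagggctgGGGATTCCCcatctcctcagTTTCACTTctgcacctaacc
B2m, chr2:122147538-122147582, plus strand: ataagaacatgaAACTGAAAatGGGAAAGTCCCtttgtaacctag
H2-Aa, chr17:34287855-34287909, minus strand: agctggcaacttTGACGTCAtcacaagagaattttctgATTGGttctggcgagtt

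The H2-K1 and H2-D1 stretches were identical at 51 of 52 positions. GGGATTCCC, the core of the NF-kB binding sequence known as enhancer A, stood in 99 of 32851 promoters (0.301%), counted on either strand. The looser GGGNNNNNCC was in 45.8% of them, TTTCNNTT, the core of the interferon response element, in 21.3%, TGACG, the core of the X2 element, in 17.8% and CCAAT, the Y element, in 33.8%. A match is a description of letters in the C57BL/6J sequence, and the sequences of AKR/N and MRL/MpJ+/+ were not used here. Outside the printed stretches, TGACG and CCAAT also matched in H2-K1, H2-D1 and B2m, and GGGNNNNNCC and TTTCNNTT in H2-Aa. These looser motifs therefore did not separate the class I genes from H2-Aa. The 3 promoters not printed held fewer kinds of match: Tap1 had GGGNNNNNCC, TGACG and CCAAT, H2-Eb1 had GGGNNNNNCC and CCAAT, and Tapbp had CCAAT alone. Of the 2 starts listed for H2-K1 the first was used.

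Testes of AKR/N and MRL/MpJ+/+ gave lower signal than those of C57BL/6 for the class I heavy chains H2-K1 and H2-D1 and for the class II chains H2-Aa and H2-Ab1, while B2m, Tap2, Tapbp, H2-Eb1 and Cd74 were not called and Tap1 was too dim to test. For H2-Aa in AKR/N this rests on 1 of its 3 tested probe sets, a call lost under several alternatives. In MRL/MpJ+/+ the called H2-Aa probe sets had no array above the filter. The brightest probe set of H2-K1 was 5.92-fold lower in MRL/MpJ+/+ and 6.36-fold lower in AKR/N, and that of H2-D1 4.38-fold and 5.97-fold lower. Another probe set of H2-D1 went the opposite way in both strains, 3.10-fold and 3.81-fold higher than in C57BL/6, where it lay at the level of the filter. The lower heavy chain signal was also not seen on 1424948_x_at, which is annotated with both H2-K1 and H2-D1 and so is not a member. Its log2 differences from C57BL/6 were -0.12 (adjusted p = 0.621) in MRL/MpJ+/+ and -0.010 (adjusted p = 0.976) in AKR/N, neither called. No member probe set was called between MRL/MpJ+/+ and AKR/N, the 2 strains that share H2k. The samples are whole organs, so fewer cells of a type and less RNA per cell cannot be told apart. All folds are differences of log2(intensity + 16) turned into ratios, where 16 units is the pseudocount, which understates the change of dim probe sets; p-values are from limma, adjusted by Benjamini-Hochberg over 29694 probe sets, and a difference is called at an adjusted p under 0.05. Arrays limit the precision by their number, 2 mice a strain, and the comparisons of AKR/N and of MRL/MpJ+/+ with C57BL/6 share the same 2 C57BL/6 mice.

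Of the 31 probe sets, 21 were tested, having at least 2 of 6 arrays above the 40th percentile of their array (17.8 to 20.8 units), and 10 were too dim. For MRL/MpJ+/+ against C57BL/6, 9 of the 21 were lower and 1 was higher, where 10.02% of all tested probe sets were called, 4.95% lower and 5.06% higher. For AKR/N against C57BL/6 the counts were again 9 lower and 1 higher, beside 9.97% of all tested probe sets (4.88% lower, 5.09% higher). Between MRL/MpJ+/+ and AKR/N the limma test called 0 of 21, beside 6.91% of all tested probe sets (3.22% higher, 3.69% lower), with 6 of the 21 at an unadjusted p under 0.05. The median difference of the tested members was -0.63, -0.62 and -0.031 in the 3 comparisons, against 0.013, -0.0027 and 0.015 over all tested probe sets. A probe set that passes the filter only through the strain in which it is bright has to differ. Over all 6 arrays, 2 of the 21, H2-D1 1426324_at and 1451683_x_at, passed through C57BL/6 alone, and Tap2 through arrays of the other strains alone. Within the strains compared, more of the probe sets called lower had no array above the filter outside C57BL/6. These were H2-Aa 1435290_x_at and 1452431_s_at for MRL/MpJ+/+, and H2-K1 1451931_x_at and H2-Ab1 1451721_a_at for AKR/N. Of the 9 that passed on all 6 arrays, 3 were called, all lower, in both comparisons with C57BL/6: H2-K1 1425336_x_at and 1427746_x_at and H2-D1 1425545_x_at.

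H2-K1 (chromosome 17, 33996012 to 34000619 in GRCm38.p6), a classical class I heavy chain, was measured by 4 probe sets, all with the _x_at suffix that marks probes able to bind related transcripts. Probe set 1425336_x_at read 498 and 507 units in C57BL/6, 57.5 and 74.4 in AKR/N and 65.9 and 77.5 in MRL/MpJ+/+. Both C57BL/6 mice stood far above the other 4, which overlapped each other. The differences were -2.57 (SE 0.133, adjusted p = 1.18e-06) for MRL/MpJ+/+ and -2.67 (SE 0.133, adjusted p = 7.87e-07) for AKR/N, or -2.80 and -2.92 with a pseudocount of 1 and -2.06 and -2.13 with 64. Probe set 1451931_x_at read 169 and 163 units in C57BL/6, 5.72 and 9.81 in AKR/N and 17.3 and 19.8 in MRL/MpJ+/+, again with C57BL/6 above all others and the others near or under the filter. It differed by -2.40 (adjusted p = 2.36e-05) and -2.94 (adjusted p = 5.20e-06). Probe set 1427746_x_at read 106 and 114 units in C57BL/6, 63.9 and 72.6 in AKR/N and 59.9 and 71.4 in MRL/MpJ+/+. Neither strain overlapped with C57BL/6, but the step was smaller, -0.63 (adjusted p = 0.0201) and -0.58 (adjusted p = 0.0288). That smaller step was no longer called in MRL/MpJ+/+ at adjusted p of 0.0564 without C57BL/6 mouse 1, 0.0957 without C57BL/6 mouse 2 and 0.137 without MRL/MpJ+/+ mouse 1, and in AKR/N at 0.0654 without C57BL/6 mouse 1, 0.137 without C57BL/6 mouse 2, 0.173 without AKR/N mouse 1 and 0.0845 without AKR/N mouse 2. Under other settings its adjusted p was 0.0589 without the variance trend in MRL/MpJ+/+, and 0.0616 with no filter and 0.0694 without the variance trend in AKR/N. The fourth, 1450534_x_at, was dim, 30.8 and 36.5 units in C57BL/6, 7.01 and 29.4 in AKR/N and 12.8 and 26 in MRL/MpJ+/+, and its differences of -0.51 (adjusted p = 0.392) and -0.62 (adjusted p = 0.299) were not called. Averaged over its 4 probe sets, H2-K1 differed by -1.53 in MRL/MpJ+/+ and -1.70 in AKR/N (adjusted p = 0.000454 and 0.000248).

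H2-D1 (chromosome 17, 35263094 to 35267497), the other classical heavy chain of C57BL/6, had 9 probe sets, of which 7 have the _x_at suffix and 5 were tested, and these did not all point the same way. Whether transcripts of related class I genes add to these values was not tested. Probe set 1425545_x_at read 265 and 282 units in C57BL/6, 32 and 32.8 in AKR/N and 50.5 and 49.4 in MRL/MpJ+/+. C57BL/6 stood above both other strains, which did not overlap either, and the differences were -2.13 (SE 0.133, adjusted p = 4.54e-06) and -2.58 (SE 0.133, adjusted p = 9.14e-07). Probe set 1451784_x_at read 201 and 201 units in C57BL/6, 12.2 and 31.7 in AKR/N and 17.1 and 29.7 in MRL/MpJ+/+ and differed by -2.48 (adjusted p = 0.000128) and -2.56 (adjusted p = 9.77e-05). In contrast, 1450170_x_at read 19.7 and 18.2 units in C57BL/6, 113 and 121 in AKR/N and 96.9 and 87.6 in MRL/MpJ+/+. Here the C57BL/6 mice were at the level of the filter and the other 4 mice well above it, and 1450170_x_at was higher by 1.63 (SE 0.149, adjusted p = 6.41e-05) in MRL/MpJ+/+ and 1.93 (SE 0.149, adjusted p = 1.96e-05) in AKR/N. The calls of these 3 probe sets against C57BL/6 held under every alternative run, leaving out each mouse included, but their sizes moved with the pseudocount. With a pseudocount of 1 and of 64 the difference of 1450170_x_at was 2.22 and 0.91 in MRL/MpJ+/+ and 2.56 and 1.13 in AKR/N, and that of 1425545_x_at -2.43 and -1.56 in MRL/MpJ+/+ and -3.04 and -1.81 in AKR/N.

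The remaining tested probe sets of H2-D1 were bright in no strain. Probe set 1451683_x_at read 36.9 and 32 units in C57BL/6, 1.52 and 2.06 in AKR/N and 2.90 and 16.3 in MRL/MpJ+/+ and was lower in AKR/N, with a difference of -1.50 (adjusted p = 0.0160), a call that was lost at adjusted p of 0.0797 without C57BL/6 mouse 1, 0.0789 without C57BL/6 mouse 2, 0.0820 without AKR/N mouse 1 and 0.0780 without AKR/N mouse 2, and at 0.0593 with a pseudocount of 1. In MRL/MpJ+/+ its difference of -1.03 (adjusted p = 0.0790) was not called. Probe set 1426324_at, the only tested H2-D1 probe set without the _x_at suffix, read 22.2 and 34.9 units in C57BL/6, 9.52 and 13.1 in AKR/N and 13.5 and 8.18 in MRL/MpJ+/+ and differed by -0.72 (adjusted p = 0.143) and -0.69 (adjusted p = 0.164), neither called. Of the 4 untested probe sets, 1427651_x_at read 1.02 and 3.24 units in C57BL/6, 16.1 and 17.1 in AKR/N and 15.5 and 22.9 in MRL/MpJ+/+, so that its C57BL/6 mice were also the lowest, as with 1450170_x_at, but near background. The others, 1425614_x_at, 1452544_x_at and 1451934_at, lay between 1.18 and 33.7 units over all mice. Averaged over its 5 tested probe sets, H2-D1 differed by -0.95 and -1.08, values that mix both directions.

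**Figure D1:**
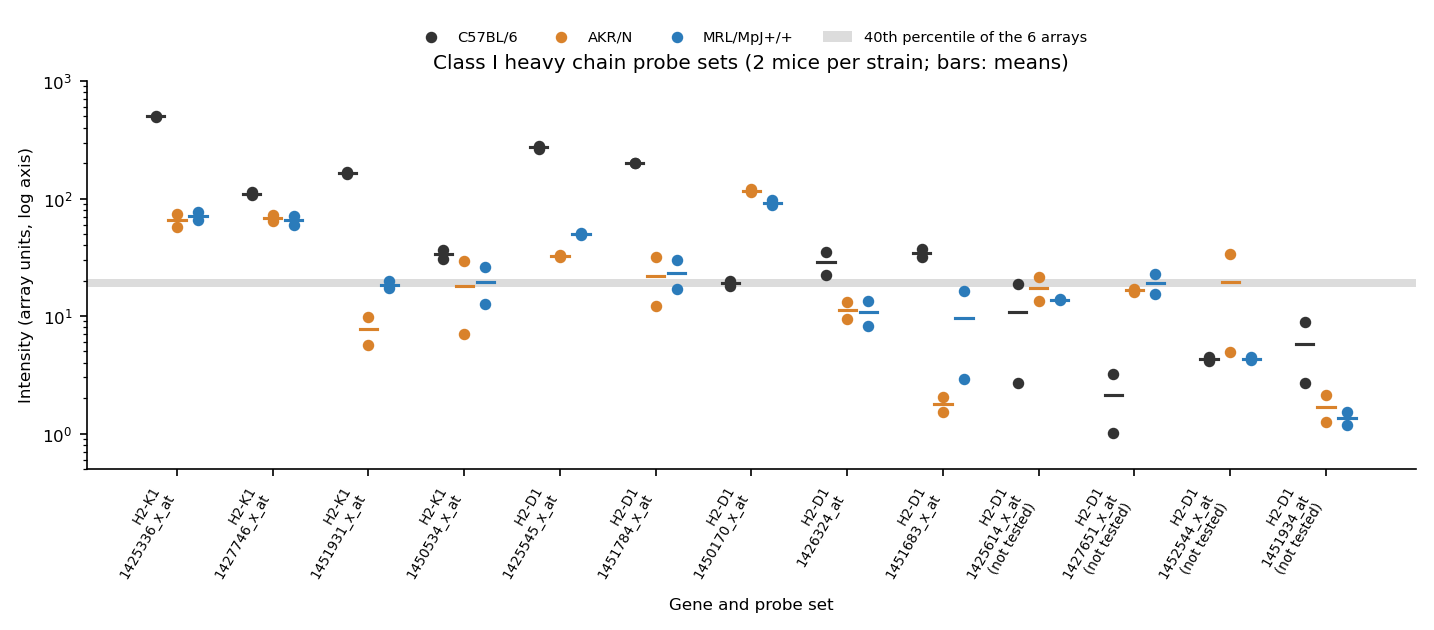
Intensity of each class I heavy chain probe set in each mouse (points; bars are strain means; log axis, array units), with the grey band marking the 40th percentile of the 6 arrays. C57BL/6 lies above the other strains in most tested probe sets, with H2-K1 1425336_x_at at 502 ± 5.92 units (SD, n = 2), and below them in H2-D1 1450170_x_at, at 19 ± 1.11 units against 117 ± 5.56 in AKR/N and 92.3 ± 6.62 in MRL/MpJ+/+.

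Whether the probe sets of a gene moved by different amounts was tested directly, by taking in each mouse the log2(intensity + 16) of every other tested probe set minus that of the brightest of the same gene and comparing this difference between strains, for 10574 pairs of 6247 genes. Probe sets differ in how brightly they bind, so the sign of such a ratio carries no meaning and its change between strains alone was read. The brightest was picked by its mean over these same arrays, and for the heavy chains it owed that place to C57BL/6. H2-K1 1425336_x_at averaged 502 units there, 66.0 in AKR/N and 71.7 in MRL/MpJ+/+, beside 110, 68.2 and 65.7 for 1427746_x_at. Outside C57BL/6 the brightest H2-D1 probe set was 1450170_x_at. This choice of reference favours positive shifts outside C57BL/6. The members gave 12 pairs of 6 genes. In MRL/MpJ+/+ against C57BL/6, 4 of the 12 were called, beside 1.89% of all pairs. AKR/N against C57BL/6 also gave 4 of 12, beside 1.57%. Between MRL/MpJ+/+ and AKR/N the limma test called 0 of 12, beside 0.832%, with 4 of the 12 at an unadjusted p under 0.05. All called pairs were of the heavy chains, which gave 7 of the 12; of the 5 pairs of B2m, Tapbp, H2-Aa and H2-Ab1 none was called, the smallest adjusted p being 0.164 and 0.333 against C57BL/6 and 0.312 between MRL/MpJ+/+ and AKR/N.

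The largest such difference was that of H2-D1 1450170_x_at against 1425545_x_at. The log2 ratio of the pair was -2.97 and -3.12 in C57BL/6, 1.43 and 1.49 in AKR/N and 0.76 and 0.66 in MRL/MpJ+/+. All 4 mice of the other strains lay above both C57BL/6 mice, a shift of 3.76 (SE 0.145, adjusted p = 0.00119) in MRL/MpJ+/+ and 4.51 (SE 0.145, adjusted p = 0.000263) in AKR/N, and these 2 calls held under every alternative run. H2-K1 1427746_x_at against 1425336_x_at had log2 ratios of -2.07 and -2.01 in C57BL/6, 0.12 and -0.030 in AKR/N and -0.11 and -0.10 in MRL/MpJ+/+. Again both C57BL/6 mice lay below the other 4, a shift of 1.94 (SE 0.144, adjusted p = 0.00482) and 2.09 (SE 0.144, adjusted p = 0.00459). With single mice left out the adjusted p of this pair rose past the threshold in MRL/MpJ+/+, at 0.0514 without C57BL/6 mouse 1, 0.0760 without MRL/MpJ+/+ mouse 1 and 0.0734 without MRL/MpJ+/+ mouse 2, and in AKR/N at 0.0531 without AKR/N mouse 1. The other called pairs were of dim probe sets. H2-K1 1450534_x_at shifted by 2.05 (SE 0.263, adjusted p = 0.0255) and 2.05 (SE 0.263, adjusted p = 0.0228) and H2-D1 1426324_at by 1.41 (SE 0.191, adjusted p = 0.0281) and 1.88 (SE 0.191, adjusted p = 0.0130) against the brightest probe sets of their genes. With 16 units added, 1450534_x_at could fall from its C57BL/6 level by 1.63 at most and 1426324_at by 1.46, less than the fall of the brightest probe set of their genes, so the positive sign of these shifts was fixed beforehand and nothing is read from them. Their calls were lost with a pseudocount of 1 (adjusted p = 0.257 and 0.267 for H2-K1, 0.262 and 0.119 for H2-D1). The same floor holds for 1450170_x_at, which could fall by 1.13 at most, but this probe set was itself higher outside C57BL/6. Without pairs whose sign the floor fixes, 1 of the 4 called pairs was left in each comparison with C57BL/6, that of H2-K1 1427746_x_at. The positive sign of that pair's shift is still favoured by the choice of reference. The pairs of H2-D1 1451784_x_at and H2-K1 1451931_x_at were not called: the first differed by -0.35 (SE 0.285, adjusted p = 0.611) and 0.014 (SE 0.285, adjusted p = 0.986), and the second by 0.17 (SE 0.147, adjusted p = 0.642) and -0.28 (SE 0.147, adjusted p = 0.420).

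**Figure D2:**
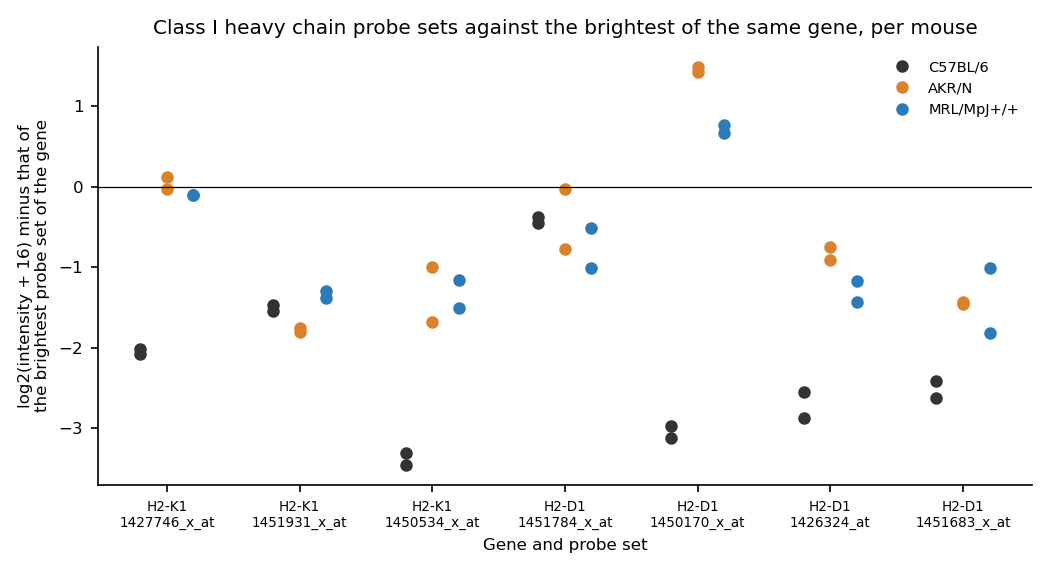
Difference in log2(intensity + 16) between each other tested heavy chain probe set and the brightest of its gene, for each mouse (points coloured by strain). For H2-D1 1450170_x_at the C57BL/6 mice lie at -2.97 and -3.12 and the AKR/N and MRL/MpJ+/+ mice between 0.66 and 1.49.

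The partners of the heavy chains gave no call. B2m (chromosome 2, 122147687 to 122153082), the light chain of every class I molecule and a gene outside the H2 complex, read 372 and 347 units in C57BL/6, 391 and 382 in AKR/N and 379 and 357 in MRL/MpJ+/+ on 1449289_a_at. On 1452428_a_at it read 347 and 484 units in C57BL/6, 391 and 342 in AKR/N and 483 and 459 in MRL/MpJ+/+. The strains overlapped on the second probe set in both comparisons with C57BL/6. Its 95% intervals, not adjusted for the number of tests, against C57BL/6 were -0.11 to 0.49 for MRL/MpJ+/+ and -0.46 to 0.14 for AKR/N, and those of 1449289_a_at were -0.16 to 0.22 and -0.091 to 0.29. Between MRL/MpJ+/+ and AKR/N, 1452428_a_at differed by 0.35 (adjusted p = 0.168), and it passed the threshold at 0.0499 without C57BL/6 mouse 1.

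Tapbp (chromosome 17, 33919478 to 33929290), tapasin, which holds the empty heavy chain at the peptide transporter, read 581 and 629 units in C57BL/6, 592 and 666 in AKR/N and 585 and 591 in MRL/MpJ+/+ on 1421812_at. Its differences from C57BL/6 were -0.039 (adjusted p = 0.826) and 0.054 (adjusted p = 0.764), with 95% intervals of -0.23 to 0.15 and -0.13 to 0.24. The second probe set, 1450378_at, read 130.5 and 131 units in C57BL/6, 166 and 153 in AKR/N and 159 and 146 in MRL/MpJ+/+. Both other strains lay above C57BL/6 there without overlap, by 0.20 (adjusted p = 0.320) and 0.26 (adjusted p = 0.193), not called. Tap2 (chromosome 17, 34204479 to 34216321), a subunit of the peptide transporter, read 6.06 and 4.98 units in C57BL/6, 21.2 and 30.9 in AKR/N and 13.7 and 19.7 in MRL/MpJ+/+. C57BL/6 was the lowest strain with no overlap, but the differences of 0.60 (SE 0.280, adjusted p = 0.223) and 0.96 (SE 0.280, adjusted p = 0.0567) were not called. For AKR/N the Tap2 difference passed at adjusted p of 0.0455 with quantile normalization and 0.0415 without the variance trend. Tap1 (chromosome 17, 34187556 to 34197225), the other subunit, had 4 probe sets between 1.04 and 13.4 units in all mice, all under the filter and none tested.

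H2-Ab1 (chromosome 17, 34263227 to 34269418), the beta chain of the class II molecule A, was lower in both strains than in C57BL/6. Probe set 1450648_s_at read 108 and 119 units in C57BL/6, 5.06 and 29.8 in AKR/N and 4.18 and 19.9 in MRL/MpJ+/+. The C57BL/6 mice were close to each other, whereas the 2 mice of each other strain differed several-fold around the filter level. The differences were -2.26 (SE 0.361, adjusted p = 0.00280) and -2.06 (SE 0.361, adjusted p = 0.00489). Without the variance trend they had adjusted p of 0.0524 and 0.0664, and for AKR/N the adjusted p was 0.0535 without C57BL/6 mouse 2. Probe set 1451721_a_at read 49.8 and 48.2 units in C57BL/6, 5.03 and 3.73 in AKR/N and 24 and 3.58 in MRL/MpJ+/+ and differed by -1.22 (adjusted p = 0.0443) and -1.67 (adjusted p = 0.0100). This probe set had no AKR/N array above the filter. Its MRL/MpJ+/+ call was lost at adjusted p of 0.152 without C57BL/6 mouse 1, 0.155 without C57BL/6 mouse 2, 0.0627 without AKR/N mouse 1, 0.0616 without AKR/N mouse 2 and 0.241 without MRL/MpJ+/+ mouse 2, and its AKR/N call at 0.0554 without C57BL/6 mouse 1, 0.0700 without C57BL/6 mouse 2, 0.0509 without AKR/N mouse 1 and 0.0650 without AKR/N mouse 2. Under other settings the adjusted p was 0.0501 with quantile normalization, 0.0830 with no filter, 0.127 with a pseudocount of 1 and 0.113 without the variance trend in MRL/MpJ+/+, and 0.0570 without the variance trend in AKR/N. The untested 1425477_x_at read 6.76 and 21.3 units in C57BL/6, 2.37 and 3.61 in AKR/N and 2.41 and 2.27 in MRL/MpJ+/+.

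H2-Aa (chromosome 17, 34282744 to 34287823), the alpha chain of the same molecule, had 3 tested probe sets, and C57BL/6 had the highest strain mean on each. Probe set 1435290_x_at read 60.4 and 77 units in C57BL/6, 18.3 and 37.5 in AKR/N and 12.2 and 17.6 in MRL/MpJ+/+. This probe set had no MRL/MpJ+/+ array above the filter, which fixed the direction of its MRL/MpJ+/+ call beforehand. It was lower, with a difference of -1.45 (SE 0.252, adjusted p = 0.00445), in MRL/MpJ+/+, a call that held under every alternative run (adjusted p up to 0.0486). In AKR/N it was lower too, with a difference of -0.98 (SE 0.252, adjusted p = 0.0340), and this call was lost at adjusted p of 0.0655 without C57BL/6 mouse 1, 0.201 without C57BL/6 mouse 2 and 0.230 without AKR/N mouse 1, and also at 0.0905 with no filter, 0.0619 with a pseudocount of 1 and 0.0951 without the variance trend. Probe set 1452431_s_at read 37.7 and 36.6 units in C57BL/6, 24.3 and 26 in AKR/N and 15.3 and 10.5 in MRL/MpJ+/+, with the strains in the order C57BL/6, AKR/N, MRL/MpJ+/+ and no overlap. It was lower in MRL/MpJ+/+, with a difference of -0.88 (adjusted p = 0.0317), while the AKR/N difference of -0.37 (adjusted p = 0.364) was not called. Here too no MRL/MpJ+/+ array was above the filter. The MRL/MpJ+/+ call was lost at adjusted p of 0.104 without C57BL/6 mouse 1, 0.104 without C57BL/6 mouse 2, 0.0558 without AKR/N mouse 1, 0.0566 without AKR/N mouse 2, 0.0743 without MRL/MpJ+/+ mouse 1 and 0.151 without MRL/MpJ+/+ mouse 2, and also at 0.0662 with no filter and 0.0576 with only the arrays compared. The third, 1438858_x_at, read 18.9 and 47.5 units in C57BL/6, 11.2 and 10.8 in AKR/N and 17 and 21.3 in MRL/MpJ+/+, with the 2 C57BL/6 mice far apart, and was not called in either strain, although for AKR/N it had an adjusted p of 0.0330 without C57BL/6 mouse 1. As a mean of its 3 probe sets H2-Aa differed by -0.92 in MRL/MpJ+/+ (adjusted p = 0.0227) and -0.72 in AKR/N (adjusted p = 0.0647). The untested 1443783_x_at lay between 0.132 and 3.73 units.

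The remaining class II genes were not called in any comparison. H2-Eb1 (chromosome 17, 34305867 to 34316674), the beta chain of the class II molecule E, whose alpha chain H2-Ea is known not to be expressed in H2b mice, read 65 and 69.9 units in C57BL/6, 44.1 and 44.2 in AKR/N and 60.6 and 67.5 in MRL/MpJ+/+ on its only probe set. MRL/MpJ+/+ overlapped with C57BL/6, with a difference of -0.061 (adjusted p = 0.855) and a 95% interval of -0.40 to 0.28. AKR/N lay below both strains without overlap, with a difference of -0.47 (adjusted p = 0.0838) against C57BL/6. Cd74, the invariant chain that escorts class II molecules and lies on chromosome 18, outside the H2 complex, read 77.9 and 91.4 units in C57BL/6, 78 and 77.6 in AKR/N and 65.8 and 45.9 in MRL/MpJ+/+. It differed by -0.50 (adjusted p = 0.0947), with a 95% interval of -0.87 to -0.12, in MRL/MpJ+/+ and by -0.10 (adjusted p = 0.791) in AKR/N. The ordering of Cd74 had MRL/MpJ+/+ lowest and AKR/N overlapping with C57BL/6.

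**Figure D3:**
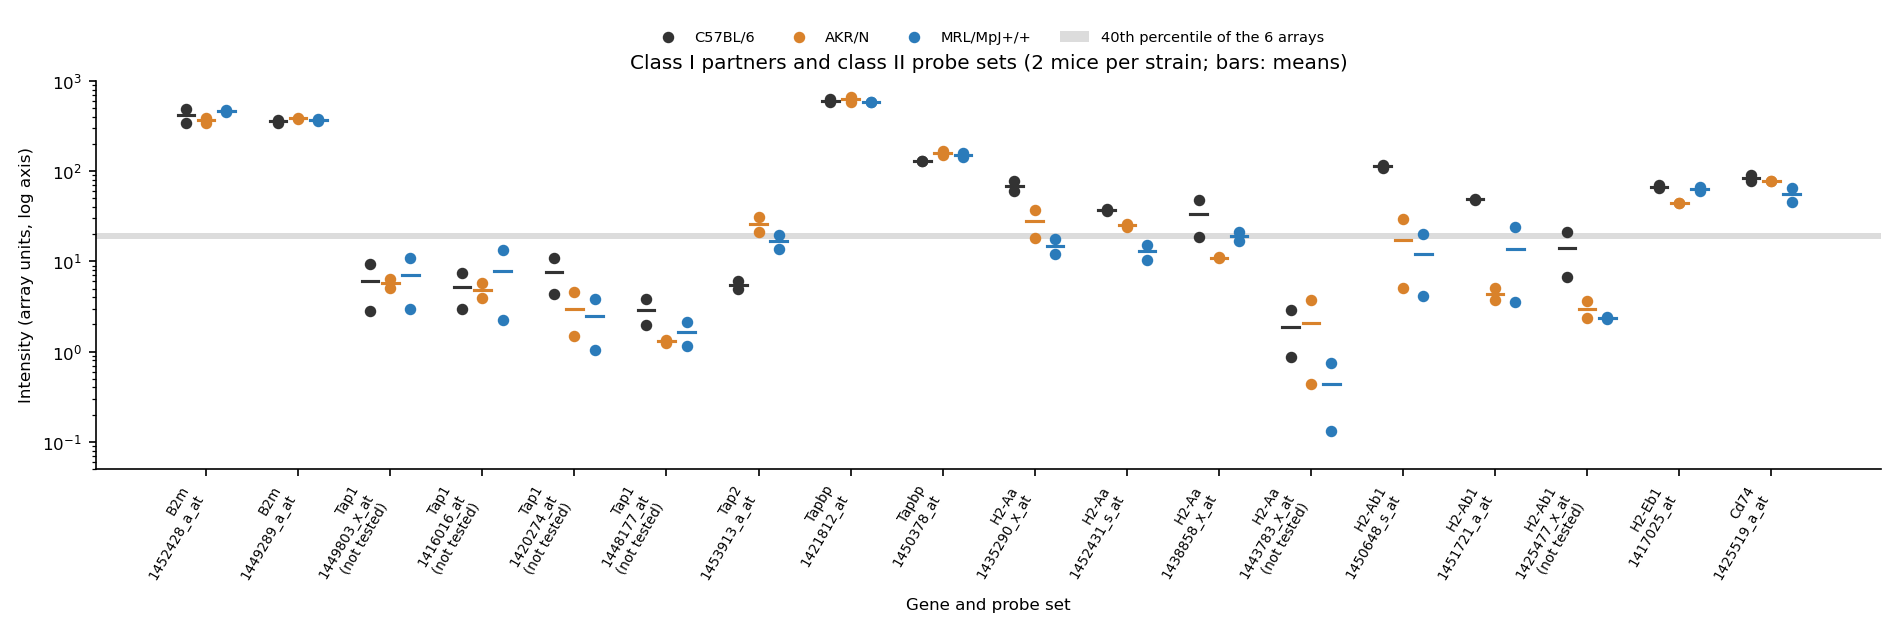
Intensity of each probe set of B2m, Tap1, Tap2, Tapbp, the class II chains and Cd74 in each mouse (points; bars are strain means; log axis, array units), with the grey band marking the 40th percentile of the 6 arrays. B2m and Tapbp lie far above the band in every strain, while H2-Ab1 1450648_s_at is at 113 ± 7.66 units (SD, n = 2) in C57BL/6 and 17.4 ± 17.5 and 12.1 ± 11.1 in AKR/N and MRL/MpJ+/+.

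By role, 6 of 9 tested heavy chain probe sets were called in MRL/MpJ+/+ against C57BL/6, 5 of them lower, where 10.02% of all probe sets were called. In AKR/N 7 of 9 were called, 6 of them lower, beside 9.97% of all, and 1 of the 6, 1451683_x_at, passed the filter through C57BL/6 arrays alone. Another, H2-K1 1451931_x_at, had no AKR/N array above the filter. Of 6 class II chain probe sets, 4 were lower in MRL/MpJ+/+ and 3 in AKR/N. Among those lower in MRL/MpJ+/+, H2-Aa 1435290_x_at and 1452431_s_at had no array of that strain above the filter. Among those lower in AKR/N, the same holds for H2-Ab1 1451721_a_at. Of 5 probe sets of B2m, Tap2 and Tapbp, none was called by limma in the 3 comparisons (smallest adjusted p 0.223, 0.0567 and 0.168). Between the 2 strains with H2k, the differences of the 21 probe sets ran from -0.52 to 0.54. The largest were 0.54 (adjusted p = 0.129) for H2-K1 1451931_x_at and -0.52 (adjusted p = 0.228) for H2-Aa 1452431_s_at. H2-D1 1425545_x_at had the smallest adjusted p of that comparison, at 0.45 (adjusted p = 0.0750), and MRL/MpJ+/+ lay above AKR/N without overlap.

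**Figure D4:**
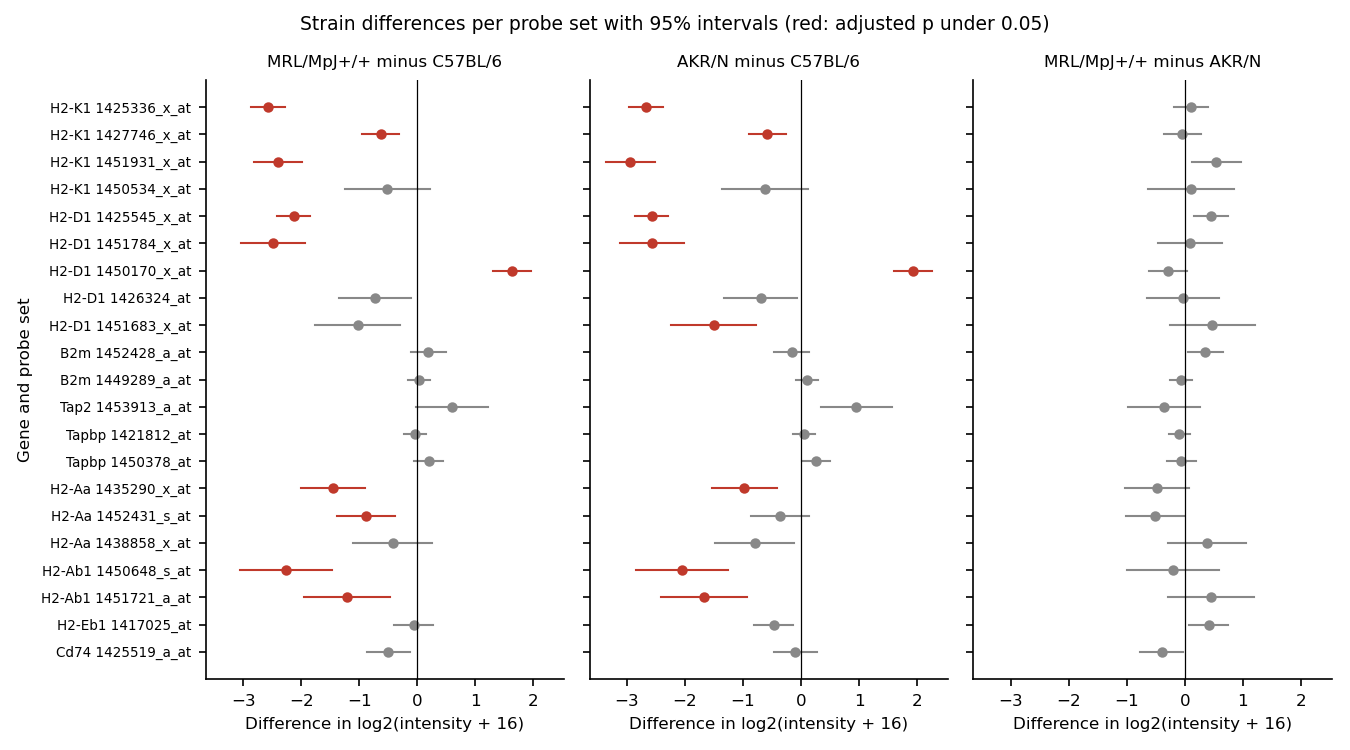
Strain differences of the 21 tested member probe sets in log2(intensity + 16), with 95% intervals (lines), in red where the adjusted p is under 0.05. The red points are heavy chains, H2-Aa and H2-Ab1 in the 2 comparisons with C57BL/6, H2-D1 1450170_x_at alone lies to the right among them, and the comparison of MRL/MpJ+/+ with AKR/N has none.

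The class I pathway list held 13 genes on the array, among them proteasome genes, peptide loading factors and Nlrc5. Of these, 11 were tested by their brightest probe set. Against C57BL/6, 2 were higher and 1 lower in MRL/MpJ+/+, and 3 were higher and none lower in AKR/N. In MRL/MpJ+/+ against AKR/N, 1 was lower. Over all 14478 genes tested this way, 12.2% (6.09% higher, 6.11% lower), 11.9% (6.38% higher, 5.49% lower) and 8.74% (3.67% higher, 5.06% lower) were called, so that 3 of 11 against C57BL/6 rests on few genes. The median difference of the 11 was 0.18, 0.13 and -0.0027, against 0.010, 0.0054 and 0.0067 over all genes. Pdia3, a thiol oxidoreductase of the peptide loading complex, read 703 and 625 units in C57BL/6, 931 and 888 in AKR/N and 903 and 906 in MRL/MpJ+/+ and was higher by 0.44 (adjusted p = 0.00536) and 0.45 (adjusted p = 0.00491). Its dim second probe set, 1445330_at, differed the other way by -0.27 (adjusted p = 0.536) and -0.59 (adjusted p = 0.155), not called. P4hb, another oxidoreductase of the endoplasmic reticulum, read 515 and 461 units in C57BL/6, 592 and 631 in AKR/N and 632 and 658 in MRL/MpJ+/+ and was higher by 0.39 (adjusted p = 0.0141) and 0.32 (adjusted p = 0.0385). Tapbpl, the tapasin-related peptide editor, read 27.6 and 41.8 units in C57BL/6, 95.9 and 96.8 in AKR/N and 42.2 and 34.5 in MRL/MpJ+/+. It was higher in AKR/N alone, by 1.16 (adjusted p = 0.00284) against C57BL/6, and lower in MRL/MpJ+/+ than in AKR/N, with a difference of -1.05 (adjusted p = 0.00732). Psme3, the gamma subunit of a proteasome activator, read 1124 and 1108 units in C57BL/6, 941 and 994 in AKR/N and 884 and 874 in MRL/MpJ+/+ and was lower in MRL/MpJ+/+, with a difference of -0.34 (adjusted p = 0.0104). A second Psme3 probe set, 1418078_at, differed the other way by 0.35 (adjusted p = 0.0973), not called. Nlrc5, the activator of class I genes, read 41.6 and 46.1 units in C57BL/6, 43.1 and 40.5 in AKR/N and 48 and 55.7 in MRL/MpJ+/+ and was not called. The immunoproteasome subunits Psmb8 and Psmb9 were too dim to test. Without single mice the adjusted p rose past the threshold for Pdia3 in AKR/N (0.0530 without AKR/N mouse 1), for P4hb in MRL/MpJ+/+ (0.0849 without C57BL/6 mouse 2, 0.0604 without MRL/MpJ+/+ mouse 1 and 0.0955 without MRL/MpJ+/+ mouse 2) and for P4hb in AKR/N (0.198 without C57BL/6 mouse 2, 0.0999 without AKR/N mouse 1, 0.222 without AKR/N mouse 2, 0.0574 without MRL/MpJ+/+ mouse 1 and 0.0578 without MRL/MpJ+/+ mouse 2). Without the variance trend no call of Pdia3, P4hb or Psme3 was left (adjusted p from 0.0926 to 0.188). P4hb in AKR/N also had 0.0508 with median centring, 0.0593 with no filter, 0.188 without the variance trend and 0.0584 with only the arrays compared. Single mice decided the calls of Psme3 in MRL/MpJ+/+ (0.0565 without MRL/MpJ+/+ mouse 1 and 0.0660 without MRL/MpJ+/+ mouse 2) and of Tapbpl between MRL/MpJ+/+ and AKR/N (0.0616 without AKR/N mouse 1, 0.0728 without AKR/N mouse 2 and 0.0625 without MRL/MpJ+/+ mouse 2; 0.0573 without the variance trend).

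Of 19 genes of the class II pathway, 14 were tested; 3 were higher and 1 lower in MRL/MpJ+/+ than in C57BL/6, 4 higher and none lower in AKR/N, and 2 lower in MRL/MpJ+/+ than in AKR/N. Of all genes 12.2%, 11.9% and 8.74% were called in these comparisons. The list's median differences were 0.041, 0.11 and -0.018. Ctsb, a lysosomal cysteine protease, read 352 and 325 units in C57BL/6, 569 and 571 in AKR/N and 584 and 579.7 in MRL/MpJ+/+ and was higher by 0.76 (adjusted p = 0.000186) and 0.73 (adjusted p = 0.000242), calls that held with each mouse left out. Of the further Ctsb probe sets, 1448732_at was also higher, by 0.63 (adjusted p = 0.00108) and 0.57 (adjusted p = 0.00215). The dimmer 1417491_at, 1417492_at and 1444987_at were not called. Lgmn, the asparaginyl endopeptidase of lysosomes, read 227 and 202 units in C57BL/6, 362 and 363 in AKR/N and 296 and 345 in MRL/MpJ+/+ and was higher by 0.54 (adjusted p = 0.00799) and 0.72 (adjusted p = 0.00158). H2-DMb2, a beta chain of the peptide exchange factor DM, read 4.38 and 17.7 units in C57BL/6, 50.1 and 60.9 in AKR/N and 72.1 and 61.5 in MRL/MpJ+/+ on its brightest probe set and was higher by 1.66 (adjusted p = 0.00182) and 1.44 (adjusted p = 0.00420). That probe set, 1443687_x_at, passed the filter through AKR/N and MRL/MpJ+/+ arrays alone. The direction was thus fixed beforehand and nothing is read from these calls, which are among the 3 and 4 higher genes counted above. H2-DMb2 probe set 1443686_at was also higher, by 0.85 (adjusted p = 0.0141) and 0.82 (adjusted p = 0.0167), whereas 1419744_at differed by -0.46 (adjusted p = 0.348) and -0.33 (adjusted p = 0.529), not called. H2-DMa, the alpha chain of DM, read 81.6 and 86.3 units in C57BL/6, 71.9 and 90.0 in AKR/N and 43.5 and 52.7 in MRL/MpJ+/+ and was lower in MRL/MpJ+/+, with differences of -0.64 (adjusted p = 0.0273) against C57BL/6 and -0.59 (adjusted p = 0.0498) against AKR/N. Ctsl, another lysosomal protease, read 2539 and 2596 units in C57BL/6, 2978 and 3056 in AKR/N and 2465 and 2436 in MRL/MpJ+/+. It was higher in AKR/N by 0.23 (adjusted p = 0.0290), and lower in MRL/MpJ+/+ than in AKR/N, with a difference of -0.30 (adjusted p = 0.0117). Ciita, the master regulator of class II genes, read 8.38 and 15.9 units in C57BL/6, 23.8 and 12 in AKR/N and 24.2 and 15.9 in MRL/MpJ+/+ and was not called. The genes H2-Ob, H2-Ea, H2-Eb2, Cd86 and Marchf1 were too dim to test.

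Of the class II pathway calls, those that single mice decided had these adjusted p without them. Lgmn in MRL/MpJ+/+ had 0.0552 without C57BL/6 mouse 2 and 0.0808 without MRL/MpJ+/+ mouse 2, and H2-DMb2 in AKR/N 0.0524 without AKR/N mouse 2. H2-DMa had, against C57BL/6, 0.0746 without C57BL/6 mouse 1, 0.113 without C57BL/6 mouse 2, 0.161 without MRL/MpJ+/+ mouse 1 and 0.0593 without MRL/MpJ+/+ mouse 2, and against AKR/N 0.0601 without C57BL/6 mouse 1, 0.0598 without C57BL/6 mouse 2, 0.0862 without AKR/N mouse 1, 0.322 without AKR/N mouse 2, 0.238 without MRL/MpJ+/+ mouse 1 and 0.102 without MRL/MpJ+/+ mouse 2. Ctsl had, in AKR/N against C57BL/6, 0.0989 without C57BL/6 mouse 1, 0.0900 without C57BL/6 mouse 2, 0.119 without AKR/N mouse 1 and 0.189 without AKR/N mouse 2, and in MRL/MpJ+/+ against AKR/N 0.0702 without AKR/N mouse 1, 0.118 without AKR/N mouse 2, 0.0556 without MRL/MpJ+/+ mouse 1 and 0.0710 without MRL/MpJ+/+ mouse 2. Under other settings Lgmn in MRL/MpJ+/+ had 0.0802 without the variance trend. H2-DMa had, against C57BL/6, 0.0638 with no filter and 0.0732 without the variance trend, and against AKR/N 0.106 with no filter, 0.0513 with a pseudocount of 1, 0.0551 with a pseudocount of 64, 0.133 without the variance trend and 0.0632 with only the arrays compared. Ctsl had, in AKR/N against C57BL/6, 0.0725 with no filter and 0.252 without the variance trend, and in MRL/MpJ+/+ against AKR/N 0.220 without the variance trend.

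The nonclassical class I genes, such as H2-M3, H2-T3, Cd1d1 and Fcgrt, had 7 of 15 members tested. The limma test called 0 of them in each of the 3 comparisons (smallest adjusted p 0.051, 0.0823 and 0.244), beside 12.2%, 11.9% and 8.74% of all genes, with 2, 2 and 1 at an unadjusted p under 0.05. Of 21 interferon and NF-kB regulators and targets, 16 were tested. In MRL/MpJ+/+ against C57BL/6, 1 was higher and 1 lower, a share near the 12.2% of all genes called there; in the other 2 comparisons none was called by limma (smallest adjusted p 0.135 and 0.0575). Irf8, a transcription factor of myeloid and B cells, read 63.5 and 68.6 units in C57BL/6, 80.1 and 108 in AKR/N and 117 and 137 in MRL/MpJ+/+ and was higher in MRL/MpJ+/+ by 0.80 (adjusted p = 0.00900). Irf2, which competes with Irf1 at interferon response elements, read 43.8 and 29 units in C57BL/6, 30.2 and 34.4 in AKR/N and 11 and 10.6 in MRL/MpJ+/+ and was lower there, with a difference of -0.95 (adjusted p = 0.0275). The Irf2 probe set passed the filter through C57BL/6 and AKR/N arrays alone. The direction of this call, the 1 lower gene counted above, was thus fixed beforehand and nothing is read from it. Without single mice the adjusted p of Irf8 was 0.0822 without MRL/MpJ+/+ mouse 2, and that of Irf2 was 0.145 without C57BL/6 mouse 1, 0.0505 without AKR/N mouse 1, 0.0523 without AKR/N mouse 2, 0.101 without MRL/MpJ+/+ mouse 1 and 0.103 without MRL/MpJ+/+ mouse 2. Under other settings Irf8 had 0.0612 without the variance trend and Irf2 0.0636 with no filter and 0.0580 with only the arrays compared. The medians of this list were -0.046, -0.081 and 0.099.

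Cell type markers were set beside these results, since class II genes are made by few cell types. Of 12 macrophage markers on the array 11 were tested and none was called by limma in the 3 comparisons (smallest adjusted p 0.193, 0.112 and 0.345), and their summed intensity was 1304 and 1187 units in C57BL/6, 1246 and 1369 in AKR/N and 1131 and 1244 in MRL/MpJ+/+. The 3 tested dendritic cell markers, of 6, were not called either, with sums of 143 and 100.2 units in C57BL/6, 93.1 and 119 in AKR/N and 100.4 and 110.3 in MRL/MpJ+/+. Of 4 B cell markers, Ms4a1, Cd79a and Cd79b were too dim to test, and Pax5 was not called (30.9 and 6.47 units in C57BL/6, 20.6 and 15.7 in AKR/N and 39.9 and 38 in MRL/MpJ+/+). Of 3 general leukocyte markers, Ptprc was too dim to test and Coro1a and Laptm5 were not called, with sums of 69.3 and 72.3 units in C57BL/6, 85.2 and 86.8 in AKR/N and 84 and 81.9 in MRL/MpJ+/+. Of 6 T cell markers 3 were tested and Cd3d was higher in AKR/N than in both other strains (1.17 and 1.70 units in C57BL/6, 113 and 173 in AKR/N and 1.57 and 2.31 in MRL/MpJ+/+), with Cd3g, Cd4 and Cd2 too dim to test. Cd3d passed the filter through AKR/N arrays alone, so the direction of its calls was fixed beforehand. The other tested T cell markers were not called, Cd3e at -0.44 (adjusted p = 0.389) and Cd8a at -0.59 (adjusted p = 0.315) in AKR/N against C57BL/6. The summed epididymis markers moved with the heavy chains, at 81.7 and 94.6 units in C57BL/6, 36.4 and 29.8 in AKR/N and 30.1 and 24.3 in MRL/MpJ+/+. Of its 3 markers Rnase10 was lower in both strains, Defb41 was not called and Lcn5 was too dim to test; the part of this in the class I and class II differences was not tested. The 3 Leydig cell markers moved the opposite way, 2629 and 2493 units in C57BL/6, 3937 and 4406 in AKR/N and 4458 and 4552 in MRL/MpJ+/+ in sum, with 3 higher in MRL/MpJ+/+ and 2 in AKR/N, and their part was not tested. The 5 spermatid markers summed to 30097 to 37533 units, the 4 spermatocyte markers to 13978 to 15774 and the 4 tested Sertoli cell markers, of 5, to 667 to 952. Among these, Acrv1 was lower in MRL/MpJ+/+ than in C57BL/6, at -0.32 (adjusted p = 0.0319). In AKR/N against C57BL/6 Sycp1 was lower, at -1.10 (adjusted p = 0.000716), and Wt1 and Rhox5 were higher, at 0.43 (adjusted p = 0.0397) and 0.38 (adjusted p = 0.0430). Between MRL/MpJ+/+ and AKR/N, 1 spermatid and 1 Sertoli cell marker were lower in MRL/MpJ+/+. There, 2 spermatocyte markers and 1 Leydig cell marker were higher. Of all genes 12.2%, 11.9% and 8.74% were called in the 3 comparisons.

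The genes that neighbour the members were described by RefSeq gene order from H2-K1 to Mog, a stretch of 245 genes of which 92 were tested. Of these, 17 (18.5%) were called in MRL/MpJ+/+ against C57BL/6, 14 (15.2%) in AKR/N against C57BL/6 and 4 (4.35%) between MRL/MpJ+/+ and AKR/N, beside 12.2%, 11.9% and 8.74% of all genes. Leaving out the members, 13 of 86 (15.1%), 10 of 86 (11.6%) and 4 of 86 (4.65%) were called. The calls among neighbours went both ways, 6 higher and 7 lower in MRL/MpJ+/+ and 5 higher and 5 lower in AKR/N against C57BL/6. The median over the neighbours was -0.012 and 0.0043 in these comparisons.

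**Figure D5:**
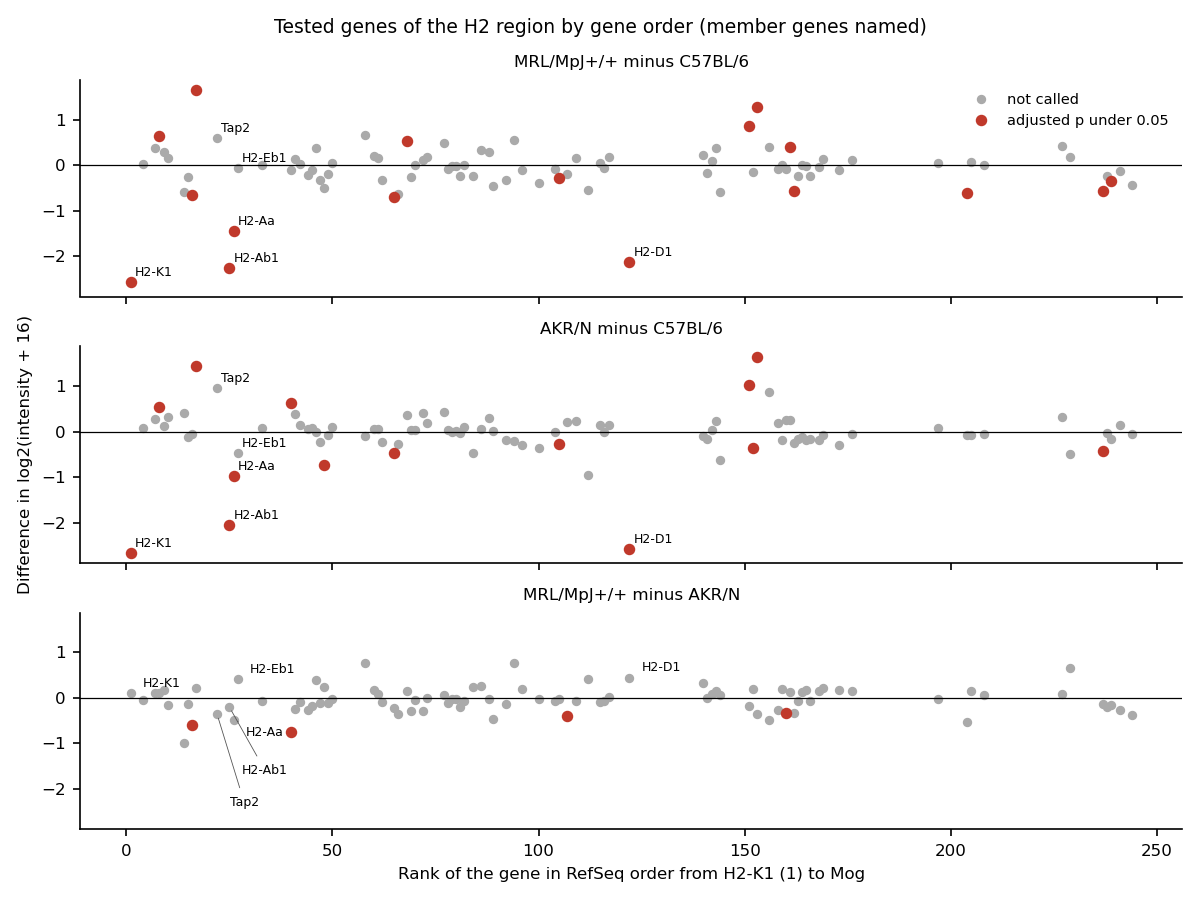
Difference in log2(intensity + 16) of the 92 tested genes between H2-K1 and Mog, each by its brightest tested probe set, against the rank of the gene in RefSeq order, for the 3 comparisons (red where the adjusted p is under 0.05; members named). H2-K1, H2-Ab1, H2-D1 and H2-Aa are the lowest of the 92 points in MRL/MpJ+/+ against C57BL/6, from -2.57 to -1.45, and lie between -0.48 and 0.45 in MRL/MpJ+/+ against AKR/N.

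The genes whose 6-array profile was most like that of H2-K1 1425336_x_at, by the root mean square difference of centred log2(intensity + 16) among 14477 genes, were Bora (0.129), Nnmt (0.139), Tbc1d22bos (0.141), Cpn1 (0.198) and H2-D1 (0.213). Bora, a mitotic kinase cofactor on chromosome 14, read 223 and 232 units in C57BL/6, 21 and 32.1 in AKR/N and 30.3 and 24.3 in MRL/MpJ+/+. Nnmt, a nicotinamide methyltransferase on chromosome 9, read 124 and 109 units in C57BL/6, 2.72 and 2.76 in AKR/N and 3.37 and 9.82 in MRL/MpJ+/+. Nnmt, Tbc1d22bos and Cpn1 passed the filter through C57BL/6 arrays alone, so that their higher signal in C57BL/6 was fixed beforehand. Of the 5 genes, Tbc1d22bos and H2-D1 lie on chromosome 17 and the others elsewhere. For H2-Aa 1435290_x_at the nearest were Trim34a (0.145), Hey1 (0.154), Zfp980 (0.156), Rxfp2 (0.175) and Saa3 (0.180), none on chromosome 17. Among them Trim34a had no MRL/MpJ+/+ array above the filter. Each likeness rests on 6 mice in 3 strains.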

How the data were processed

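Values are probe set intensities that the authors deposited on a linear scale, 1 column per array, scaled to the same 2%-trimmed mean (125.001 units, computed from the values). Total RNA was extracted with Trizol and labelled with biotin through a one-cycle cDNA kit, per the labels; the summary software is not given in the sources used here. The 64 control probe sets were left out; of the others 34945 name 1 gene, 932 several and 9160 none. Intensities were tested as log2(intensity + 16) by linear models in R 4.3.3 with limma 3.58.1 (eBayes with a trend; 3 residual and 7.58 prior degrees of freedom, 3.33 prior for pairs) on all 6 arrays. The calculations were tested on simulated data. The limit that the pseudocount sets on the fall of a dim probe set in a pair was computed after the pairs were seen. Replicate numbers did not pair the samples (correlation of deviations 0.042 to 0.049 between same-numbered mice), so no block was used. Gene names come from the platform annotation, positions and promoters from RefSeq.

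All member probe sets are named. Genes of the 4 other lists, by their brightest tested probe set, are named where called without overlap. Nlrc5 and Ciita, the further probe sets of Psme3, Pdia3, Ctsb and H2-DMb2, and the single markers were picked after their values were seen. The members and lists were chosen with earlier results of these data known. Alternatives were quantile normalization, median centring, other filters and pseudocounts, no variance trend, only the arrays compared, the replicate number as a block, each array left out, the mean of a gene's probe sets and another reference probe set.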

Additional observations from a re-analysis of the deposited data

How the results depend on the processing

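Each comparison with C57BL/6 gave 7 to 11 called member probe sets (10 of 21 as reported) under the 9 alternatives that leave no mouse out. Leaving out each mouse in turn gave 7 to 8 in MRL/MpJ+/+ and 5 to 10 in AKR/N (5 without C57BL/6 mouse 2, 6 without AKR/N mouse 1), and 0 to 1 between MRL/MpJ+/+ and AKR/N (1 without C57BL/6 mouse 1), where the other settings gave 0. Called pairs were 4, 4 and 0 of 12, but 2, 2 and 1 with the 60th percentile filter, 2, 2 and 0 with a pseudocount of 1, 6, 8 and 0 with no filter, and 1 to 3, 1 to 3 and 0 with a mouse left out. With the replicate block the calls were 10, 10 and 0 of 21 probe sets and 3, 4 and 0 of 12 pairs, so that no member probe set changed its call and the pair of H2-D1 1426324_at lost it in MRL/MpJ+/+ (adjusted p = 0.0662).

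Calls over all probe sets (2975, 2960 and 2052) were 1212, 1138 and 421 without the variance trend, 1327 between MRL/MpJ+/+ and AKR/N with no filter, and 1483 to 2545, 1290 to 2607 and 694 to 2191 with a mouse left out. Over all pairs (200, 166 and 88) they were 62, 36 and 27 with a pseudocount of 1, 480, 499 and 255 with 64, 103, 127 and 56 with no filter, 251, 259 and 136 with the 60th percentile filter, 48, 71 and 50 with only the arrays compared, 65, 68 and 14 with the replicate block, 109, 122 and 43 against the median of the other probe sets, and 353, 403 and 200 with the trend on mean level, which was chosen after seeing the data. With a mouse left out they were 5 to 47, 14 to 70 and 0 to 50. The causes were not tested.

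Over single probe sets and pairs, 28 of 1569 recomputed values changed sign, all of them differences that were not called. Against C57BL/6 in MRL/MpJ+/+, with a mouse left out, B2m ran from -0.040 to 0.42 (1452428_a_at) and -0.017 to 0.081 (1449289_a_at), Tapbp 1421812_at from -0.095 to 0.017 (0.079 as the mean of its probe sets), H2-Aa 1438858_x_at from -0.86 to 0.0088, H2-Eb1 from -0.12 to 0.0011 and Tapbpl from -0.094 to 0.31. In AKR/N, B2m 1452428_a_at ran from -0.39 to 0.073, Tapbp 1421812_at from -0.029 to 0.14, H2-DMa from -0.19 to 0.085 and Irf2 from -0.31 to 0.10. Between MRL/MpJ+/+ and AKR/N the ranges were -0.047 to 0.25 for H2-K1 1425336_x_at, -0.15 to 0.056 for 1427746_x_at and -0.38 to 0.60 for 1450534_x_at, -0.29 to 0.47 for H2-D1 1451784_x_at and -0.17 to 0.11 for 1426324_at, -0.76 to 0.35 for H2-Ab1 1450648_s_at (0.13 as the mean of its probe sets) and -0.057 to 0.97 for 1451721_a_at, and -0.041 to 0.026 for Pdia3 (0.011 with quantile normalization).

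With 2 mice a strain the spread is poorly known, and probe sets near 18 to 21 units have folds that rest on the pseudocount. Probe sequences were not used here.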

Other observations

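Probe sets annotated with a heavy chain together with another gene were left out of the members; of 3 such probe sets 2 were tested and neither was called. Probe set 1424948_x_at, named for both H2-K1 and H2-D1, read 89.8 and 94.4 units in C57BL/6, 95 and 87.9 in AKR/N and 85.2 and 81.3 in MRL/MpJ+/+. All 6 mice lay between 81.3 and 95 units there, and the differences from C57BL/6 were -0.12 (adjusted p = 0.621) in MRL/MpJ+/+ and -0.010 (adjusted p = 0.976) in AKR/N, with 95% intervals of -0.41 to 0.16 and -0.30 to 0.28. Probe set 1451593_at, named for H2-Q5 and H2-K1, read 14.4 and 26.7 units in C57BL/6, 7.93 and 15.4 in AKR/N and 26.6 and 18.7 in MRL/MpJ+/+ and was not called. Probe set 1422348_at, named for H2-D1, H2-Q2 and another gene, was too dim to test.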
